A study of Saccharomyces cerevisiae with 22 samples.

Results

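Ergosterol is the main sterol of budding yeast membranes. It is built from acetyl-CoA through mevalonate, farnesyl diphosphate and squalene, and several of the later steps need molecular oxygen and haem. When sterols run low, the zinc cluster transcription factor Upc2 moves to the nucleus and activates genes of the pathway, and lipid transfer proteins then carry finished sterols between membranes. The 10 genes described here belong to that system and were taken by their symbols in the array annotation, from 5449 Saccharomyces cerevisiae genes measured in all. They are HMG1 (YML075C) and HMG2 (YLR450W) for HMG-CoA reductases, ERG1 (YGR175C), ERG11 (YHR007C), ERG25 (YGR060W), ERG28 (YER044C), ERG3 (YLR056W) and ERG5 (YMR015C) for later steps, UPC2 (YDR213W) for the regulator, and HES1 (YOR237W) for an oxysterol-binding protein homologue. Each was read by 1 probe set.

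The 22 arrays held RNA of strain 4741 grown in YPD, a rich medium, at 30 degrees, and the groups were as follows. Cells held at 40 °C for 45 min were moved to 0.66 mM hydrogen peroxide (heat-primed, 4 arrays at 15, 30, 45 and 90 min) or returned to rich medium (2 arrays, 15 and 45 min). Cells held in 0.8 M KCl for 45 min were moved to the same peroxide dose (KCl-primed, 4 arrays at the same times) or returned to rich medium (2 arrays, 15 and 45 min). Other cells met peroxide directly (naive, 4 arrays at 15, 30, 45 and 90 min), or were sampled in heat at 40 °C or in 0.8 M KCl (2 arrays each, at 30 and 45 min). Untreated cells gave 2 arrays, called a and b as in the labels. Every stress and time had 1 array, so the untreated pair was the only repeat, and no label says whether the pair came from separate cultures. The p-values below therefore measure only the spread between these arrays. In fits without a time term, a change between times counts as spread. The peroxide series, and peroxide against rich medium, were fitted with time as a term. There the spread is how far a group difference departs from a constant over time.

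All values are log2 expression, or log2 differences of it, and a difference of 1 is 2-fold. Array medians over all genes lay between 10.16 and 10.22. All 10 sterol genes were above the background of 4.62 on all 22 arrays, although HES1 came down to 4.69 in naive peroxide. Mating type a markers were present in every group (6 of 6 on every array). Of 4 alpha-cell genes, the alpha-factor gene MF(ALPHA)1 was above background on 0 arrays, while MF(ALPHA)2, STE3 and SAG1 were above it on all 22. The summed level of these 4 genes was 9.45 and 9.63 in heat, 9.03 to 9.19 in KCl and 9.06 to 9.50 in naive peroxide, against 8.87 and 9.12 in untreated cells. Of the strain's deleted marker genes, URA3 was above background on 0 arrays, LEU2 on 3 and MET17 on 5, and the HIS3 probe set read 11.26 to 13.04, so that it does not check the allele. The summed level of 6 a-cell markers was 14.3 and 14.5 in heat and 14.3 and 14.4 in KCl, against 15.3 on both untreated arrays. The summed level of 5 meiosis genes was 12.3 and 12.9 in KCl, against 9.57 and 9.74 in untreated cells. It ran from 9.72 to 13.05 in KCl-primed peroxide and from 9.82 to 12.73 in rich medium after KCl. SPS100 had the highest level of the list, 12.87, on 1 array of KCl-primed peroxide. For RNA quality, the gap between the 3′ and 5′ probe sets of SPT15 was 1.62 and 1.71 in heat against 1.23 and 1.28 in untreated cells, and that of SRB4 was 1.42 and 1.81 in KCl against 2.26 and 2.38 in untreated cells. These measures moved with heat or KCl beside the sterol genes. The 3′ to 5′ gap of ACT1 was the highest of the 22 arrays in naive peroxide at 30 min, 0.6777 against 0.4959 and 0.4796 in untreated cells. The SPT15 gap on that array, 1.272, lay between the untreated values. The 25S rRNA level was the highest of the 22 arrays in heat-primed peroxide at 30 min, 9.653 against 8.084 and 6.997 in untreated cells. The part of all these measures in the results was not tested.

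**Figure D1:**
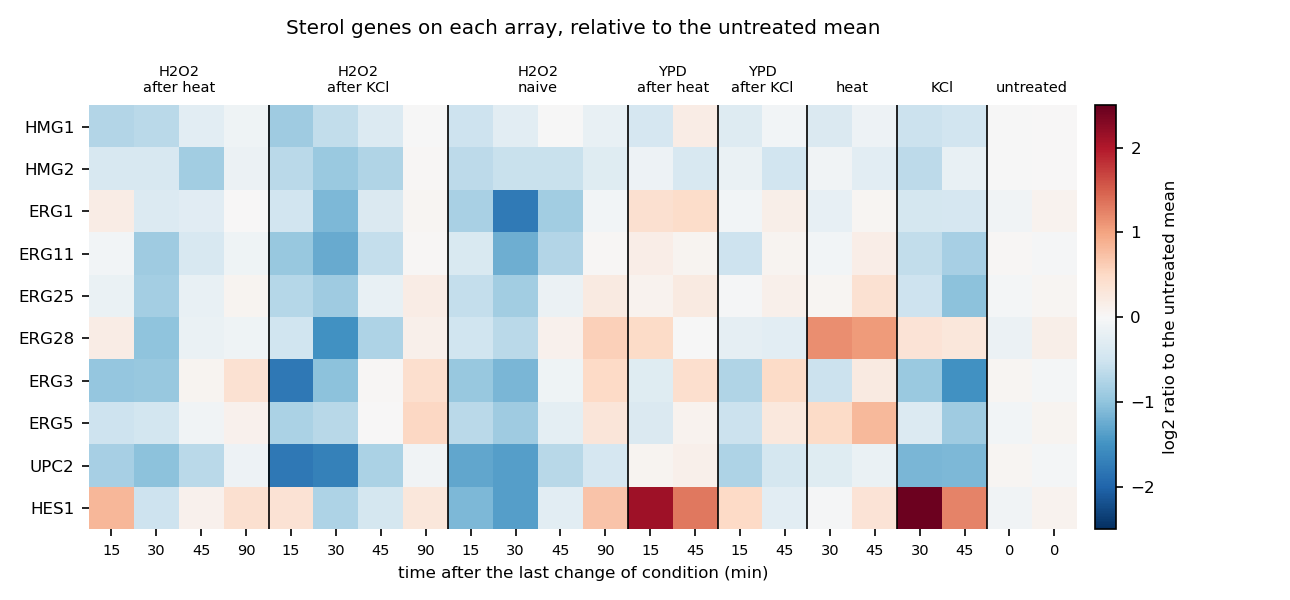
Log2 ratio to the untreated mean (colour) of the 10 sterol genes (rows) on each of the 22 arrays (columns, labelled by minutes and grouped by condition). All 10 genes were below the untreated mean at 30 min in each of the 3 peroxide groups, ERG28 was above it by 1.16 and 1.06 in heat, and HES1 was above it by 2.44 and 1.24 in KCl and by 2.12 and 1.33 in rich medium after heat.

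In the median, the sterol genes moved more over the 20 treated arrays than a typical gene did. Their standard deviations over those arrays ran from 0.27 for HMG2 to 0.98 for HES1, with a median of 0.52. The median over all 5449 genes was 0.36, and HMG1 (0.28) and HMG2 lay below it. The 10 genes were chosen with earlier results of these data known, so their larger spread gives no independent support. The untreated pair differed by 0.11 in the median over the 10 genes, and by at most 0.27, for ERG28. In these bulk samples a lower level in every cell cannot be told apart from a change in some of the cells.

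HMG1 and HMG2 encode the HMG-CoA reductases, the enzymes of the committed step to mevalonate. HMG1 lay below the untreated mean on 19 of 20 treated arrays and HMG2 on 19 of 20, but neither was 2-fold lower on any of them. HMG1 read 10.77, 10.84, 11.24 and 11.40 in heat-primed peroxide, 10.61, 10.88, 11.17 and 11.50 in KCl-primed peroxide and 10.98, 11.25, 11.49 and 11.33 in naive peroxide, at 15, 30, 45 and 90 min, against 11.50 on both untreated arrays. In each peroxide group its lowest array was the earliest, and its 90 min array was within 0.18 of the untreated mean. HMG2 did not share that order: its lowest value was at 45 min after heat priming (10.30), at 30 min after KCl priming (10.24) and at 15 min in naive cells (10.52), against 11.17 on both untreated arrays. Over the 20 treated arrays the 2 isozyme genes correlated at r = 0.33 (Spearman 0.36), a description over arrays that share times and treatments. Whether probes of one isozyme gene also read the other was not tested.

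ERG1 encodes squalene epoxidase, the first oxygen-requiring enzyme of the sterol branch and the target of terbinafine. In heat-primed peroxide it read 13.20, 12.68, 12.73 and 13.03 at 15, 30, 45 and 90 min, in KCl-primed peroxide 12.53, 11.90, 12.65 and 13.07, and in naive peroxide 12.22, 11.25, 12.14 and 12.95, against 12.93 and 13.10 in untreated cells. The naive 30 min value was the lowest of its 22. The 30 min dip was thus shallowest after heat priming, 0.33 below the untreated mean, and deepest in naive cells, 1.76 below it. In rich medium after heat ERG1 read 13.42 and 13.47, above both untreated arrays.

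ERG11 encodes lanosterol demethylase, a cytochrome P450 and the target of azole antifungals. It stood at 12.52, 12.13 and 12.18 at 30 min in heat-primed, KCl-primed and naive peroxide, against 13.43 and 13.37 in untreated cells. By 90 min it was back at 13.29, 13.43 and 13.43 in those 3 groups. In KCl it read 12.79 and 12.57, below both untreated arrays, and in heat 13.34 and 13.57, which lay on either side of them.

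ERG25 and ERG28 act in the removal of the methyl groups at carbon 4 of the sterol ring, ERG25 as the methyl oxidase and ERG28 as a membrane scaffold that holds the enzymes together. ERG25 read 13.45 and 13.78 in heat and 12.88 and 12.38 in KCl, against 13.35 and 13.46 in untreated cells. ERG28 lay above both untreated arrays (10.45 and 10.73) in heat and in KCl. It read 11.75 and 11.65 in heat, its highest values of the 22, and 10.93 and 10.87 in KCl. At 30 min in peroxide both genes were low in all 3 series, with ERG25 at 12.56, 12.51 and 12.54 and ERG28 at 9.59, 9.07 and 9.92 in heat-primed, KCl-primed and naive cells. The 3 ERG25 values lay within 0.05 of each other, whereas those of ERG28 spread over 0.85.

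ERG3 and ERG5 encode the sterol desaturases that work near the end of the pathway. ERG3 had the widest range of the synthesis genes after ERG28, with its lowest value, 10.89, at 15 min of KCl-primed peroxide and its highest, 13.17, at 90 min of naive peroxide. It read 12.13 and 12.89 in heat, and 11.75 and 11.15 in KCl, against 12.72 and 12.63 in untreated cells. In all 3 peroxide groups ERG3 was no higher than 11.72 at 15 and 30 min and no lower than 13.06 at 90 min, so its 90 min arrays lay above both untreated ones. ERG5 read 12.40 and 12.73 in heat, above both untreated arrays (11.86 and 11.98), and 11.57 and 11.03 in KCl, below both.

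UPC2, the sterol-sensing activator, was itself low in most stressed samples. It read 7.58, 7.39, 7.74 and 8.30 in heat-primed peroxide, 6.63, 6.73, 7.63 and 8.34 in KCl-primed peroxide and 7.11, 7.04, 7.72 and 8.01 in naive peroxide at 15, 30, 45 and 90 min, against 8.47 and 8.37 in untreated cells. It was 2-fold or more below the untreated mean on 7 of the 20 treated arrays, more than any other of the 10 genes. KCl gave 7.28 and 7.30, and rich medium after KCl still gave 7.64 and 7.98, while rich medium after heat gave 8.49 and 8.55.

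HES1 encodes one of the yeast oxysterol-binding protein homologues, a family that exchanges sterols and phosphoinositides between membranes. It was the most variable of the 10 genes. Over the 20 treated arrays its median correlation with the others was the lowest (r = 0.35), although it reached 0.62 with ERG1. It read 8.51 and 7.31 in KCl and 8.19 and 7.39 in rich medium after heat, against 5.99 and 6.14 in untreated cells. In heat itself it read 6.03 and 6.41, and in rich medium after KCl 6.57 and 5.79, close to the untreated pair. Heat-primed peroxide gave 6.89, 5.55, 6.18 and 6.47 at 15, 30, 45 and 90 min and KCl-primed peroxide 6.43, 5.29, 5.63 and 6.34, whereas naive peroxide gave 4.95, 4.69, 5.79 and 6.77, the first 2 of them near background. HES1 was thus higher in KCl and in cells released from heat, and near its untreated level in heat and at 45 min after release from KCl.

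**Figure D2:**
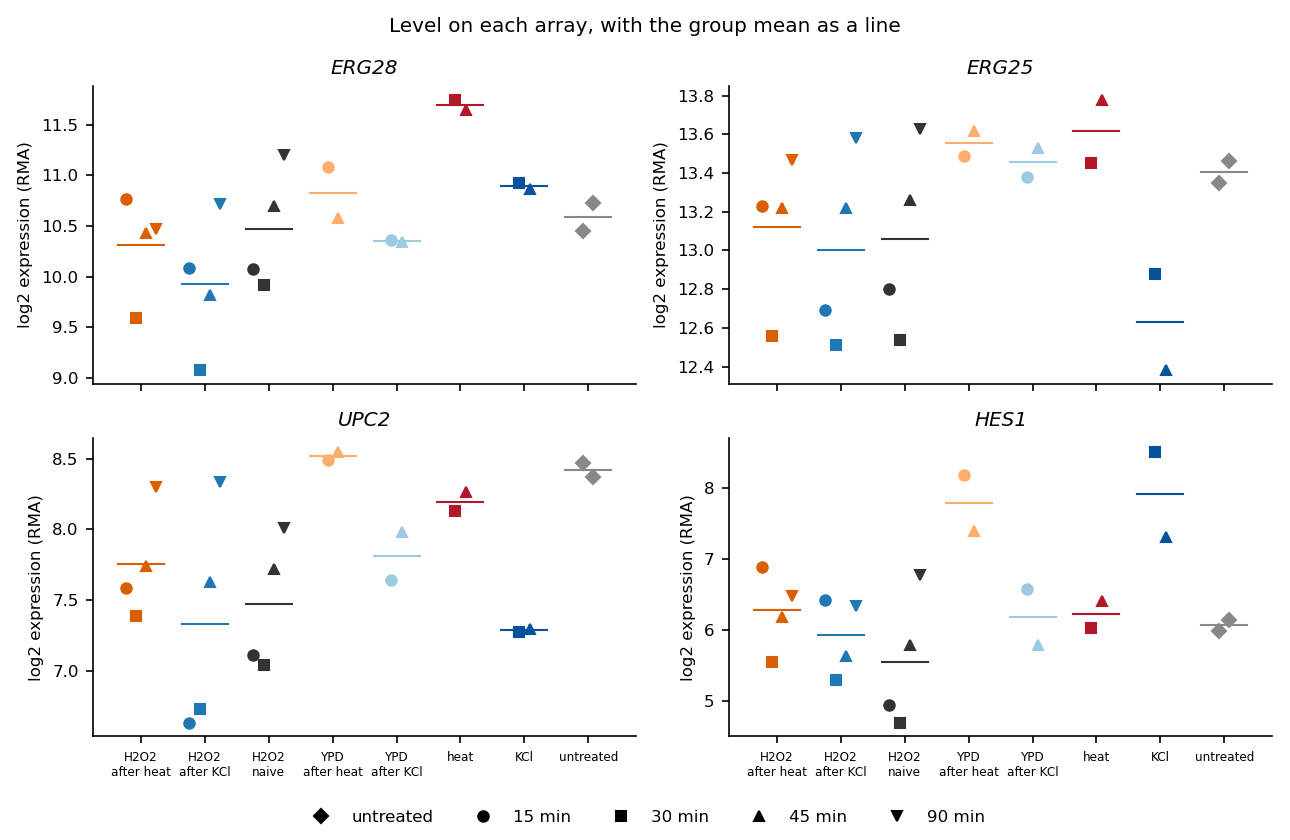
Log2 expression (vertical axis) of ERG28, ERG25, UPC2 and HES1 on each array, by condition. Marker shapes give the time, and lines the group means, with no error bar because each stress and time has 1 array. The heat arrays are the 2 highest for ERG28, the KCl arrays lie below both untreated arrays for ERG25 and UPC2, and the KCl and post-heat rich medium arrays are the 4 highest for HES1.

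The first comparison asked what each stress alone did. In heat, ERG28 rose by 1.11 ± 0.25 over untreated cells (limma, SE, n = 2 arrays per group, adjusted p = 0.0089), and none of the other 9 genes passed the adjusted threshold of 0.05. ERG5 differed by 0.65 ± 0.27 (adjusted p = 0.0804), with both heat arrays above both untreated ones. The remaining 8 differences lay between -0.24 (HMG1) and 0.21 (ERG25), and the median of the 10 was -0.01, against 0.07 over all genes. Of all 5449 genes, 27.5% were called higher in heat, so 1 gene of 10 is below the background share. The ERG28 call was lost without untreated array a (0.97, adjusted p = 0.0665) and without the 30 min heat array (1.06, adjusted p = 0.0518).

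In KCl, 5 of the 10 genes fell and 1 rose. UPC2 fell by 1.13 ± 0.22 (adjusted p = 0.00376), ERG3 by 1.22 ± 0.39 (0.0308), ERG25 by 0.77 ± 0.27 (0.0444), ERG11 by 0.72 ± 0.19 (0.015) and HMG1 by 0.51 ± 0.15 (0.0225) on the log2 scale. HES1 rose by 1.84 ± 0.45, or 3.59-fold (adjusted p = 0.0112). The differences of HMG2 (-0.42 ± 0.18), ERG1 (-0.43 ± 0.27) and ERG5 (-0.62 ± 0.27) were negative without passing, and that of ERG28 was 0.31 ± 0.25. On all 10 genes both KCl arrays lay on the same side of the untreated pair, as they did for 82% of all genes. The median difference was -0.56, against 0.03 over all genes. KCl changed much of the transcriptome: 26% of all genes were called lower and 30.2% higher. At least 2-fold below the untreated mean were 1 of the 10 genes at 30 min and 3 at 45 min in KCl, where 12.9% and 13.9% of all genes were.

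The UPC2 call in KCl held without each array in turn, but the others did not. HMG1 lost it without untreated array a (-0.51) or b (-0.50) or the 30 min KCl array (-0.47). ERG11 lost it without array a (-0.69) or b (-0.75) or the 45 min KCl array (-0.61), and ERG3 without the same 3 arrays (-1.18, -1.26 and -0.93). ERG25 lost it without array a (-0.83) or b (-0.72), without the 30 or the 45 min heat array (-0.77 for each, adjusted p = 0.0544), and without the 45 min KCl array (-0.52). HES1 lost it without array a (1.76) or the 30 min KCl array (1.24). After another quantile normalization HES1 (1.31, adjusted p = 0.0502) and ERG25 lost their calls. The highest adjusted p of these 5 genes over the arrays left out was 0.200, that of ERG25. HMG2 (-0.65) passed without the 45 min KCl array, and ERG5 (-0.89) without the 30 min one.

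In naive peroxide at 30 and 45 min, all 10 differences from untreated cells were negative and 3 passed. ERG1 fell by 1.32 ± 0.27 (adjusted p = 0.0205), UPC2 by 1.04 ± 0.22 (0.0209) and ERG11 by 0.98 ± 0.19 (0.0169) on the log2 scale. The other 7 ranged from -0.14 ± 0.15 for HMG1 to -0.82 ± 0.45 for HES1. The median was -0.60, against -0.03 over all genes, and 7.18% of all genes were called lower. All 3 calls were lost without untreated array a (-1.40, -0.99 and -0.95 for ERG1, UPC2 and ERG11), without array b (-1.24, -1.09 and -1.01) and without the 30 min peroxide array (-0.88, -0.70 and -0.74), the array on which those genes were lowest among the naive ones. HMG2 (-0.56, adjusted p = 0.0211) passed when either KCl array was left out. When all 4 peroxide times were used, 0 of the 10 genes and 0 of all genes passed in that fit, and the same 3 differences were -0.88, -0.95 and -0.58.

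**Figure D3:**
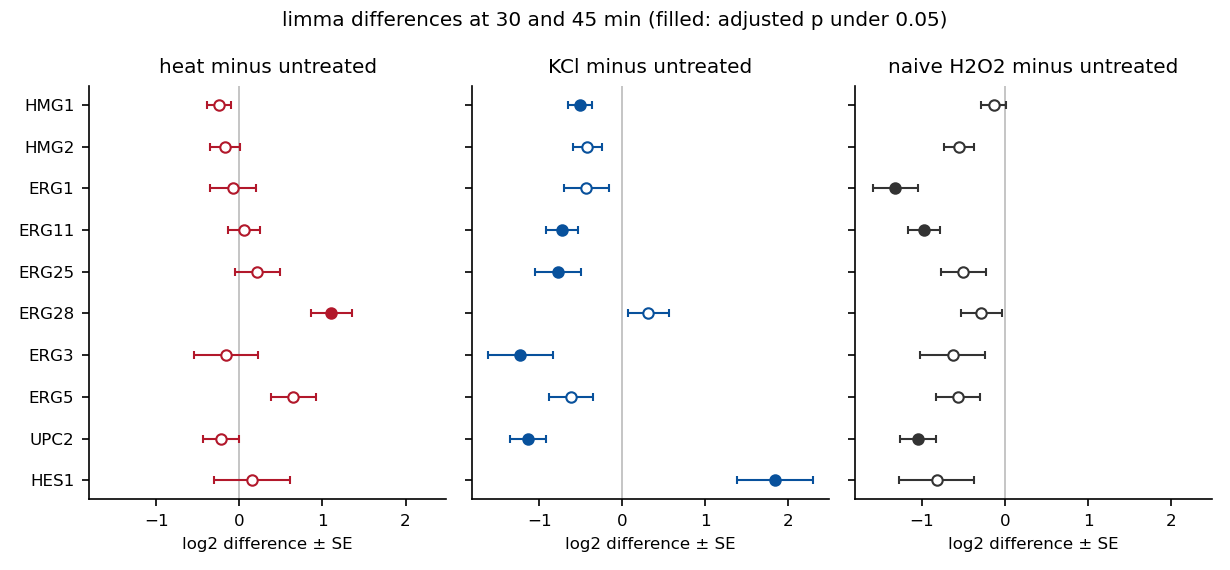
Log2 difference of heat, KCl and naive peroxide (30 and 45 min) from untreated cells for each gene (rows), as limma estimates with standard errors (n = 2 arrays per group). Filled points passed an adjusted p of 0.05: 1 in heat, 6 in KCl and 3 in peroxide, with ERG28 positive in heat, HES1 positive in KCl and all 10 points negative in peroxide. Of all 5449 genes, 49.9%, 56.2% and 18.4% passed in either direction in heat, KCl and peroxide.

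The stresses were then set against each other. Heat exceeded KCl for 5 genes: ERG5 by 1.26 ± 0.27 (adjusted p = 0.0136), ERG25 by 0.99 ± 0.27 (0.0328), UPC2 by 0.91 ± 0.22 (0.0202), ERG28 by 0.79 ± 0.25 (0.0469) and ERG11 by 0.77 ± 0.19 (0.0223), where 15.4% of all genes were called higher. ERG3 differed by 1.06 ± 0.39 (adjusted p = 0.0784). HES1 was lower in heat than in KCl (-1.69 ± 0.45, adjusted p = 0.03), as were 15.2% of all genes. With time as a block among the stress arrays 0 of these 6 calls held, with adjusted p from 0.0516 (ERG5) to 0.106 (ERG28). Each call also depended on some array. ERG5 lost it without the 45 min heat array (1.09), and UPC2 without that array (0.84) or the 30 min KCl array (0.90). ERG11 lost it without either untreated array (0.77) or the 45 min array of heat (0.66) or of KCl (0.66). ERG25 lost it without either untreated array (0.99), either heat array (1.15 and 0.82 without 30 and 45 min) or the 45 min KCl array (0.73). ERG28 lost it without any of the 6 untreated, heat and KCl arrays (0.75 to 0.84), after another quantile normalization and with the authors' fold-change table. HES1 lost it without either untreated array (-1.69), either heat array (-1.50 and -1.88 without 30 and 45 min) or the 30 min KCl array (-1.09). ERG3 (1.06) passed without either peroxide array, and HMG2 (0.48) without the 45 min KCl array.

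Peroxide was below heat for 5 genes. ERG28 differed by -1.39 ± 0.25 (adjusted p = 0.0094), ERG1 by -1.24 ± 0.27 (0.0189), ERG5 by -1.21 ± 0.27 (0.0196), ERG11 by -1.03 ± 0.19 (0.0109) and UPC2 by -0.82 ± 0.22 (0.0337), where 14.8% of all genes were called lower. The 30 min peroxide array carried part of this: without it ERG1 (-0.80), ERG11 (-0.79), ERG5 (-0.88) and UPC2 (-0.48) no longer passed. The calls were also lost without the 30 min heat array for ERG1 (-1.37), ERG28 (-1.34), ERG5 (-1.38) and UPC2 (-0.88), without the 45 min heat array for ERG1 (-1.11), ERG5 (-1.04) and UPC2 (-0.75), and without either untreated array for UPC2 (-0.82). HMG2 (-0.38) passed without either KCl array. With time as a block, ERG28 and ERG1 kept their calls and ERG11 (adjusted p = 0.0528), ERG5 (0.0682) and UPC2 (0.0845) lost them. UPC2 also lost its call after another quantile normalization.

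Peroxide was below KCl for HES1, by 2.67 ± 0.45 on the log2 scale (adjusted p = 0.00405), and for ERG1 (-0.89 ± 0.27, adjusted p = 0.0349), where 23.5% of all genes were called lower. The HES1 arrays read 4.69 and 5.79 in naive peroxide at 30 and 45 min, against 8.51 and 7.31 in KCl, and its call held without each array in turn. ERG1 lost its call without either untreated array (-0.89), the 30 or 45 min KCl array (-0.89 and -0.88) or the 30 min peroxide array (-0.44), and with time as a block (adjusted p = 0.0533), under which HES1 kept its call. ERG28 (-0.98) passed without the 45 min peroxide array. The 3 comparisons of stresses with untreated cells share the untreated pair, and those between stresses share the stress arrays, so their agreement is no separate support.

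The peroxide time courses held a dip and a return for most of the 10 genes. The median ratio of the 10 to the untreated mean was -0.29, -0.76, -0.22 and -0.05 in heat-primed cells, -0.76, -0.98, -0.40 and 0.09 in KCl-primed cells and -0.66, -1.02, -0.25 and 0.13 in naive cells at 15, 30, 45 and 90 min. Over all genes the same medians lay between -0.08 and 0.01. All 10 genes were below both untreated arrays at 30 min in each of the 3 series, where 51.0%, 53.0% and 49.5% of all genes were in heat-primed, KCl-primed and naive cells. At least 2-fold below the untreated mean at 30 min were 1, 5 and 5 of the 10 genes in those 3 groups, where 2.02%, 4.57% and 6% of all genes were. At 15 min the counts were 0, 2 and 2, where 2.83%, 4.57% and 1.32% of all genes were. At 90 min no gene of the 10 was more than 0.41 below the untreated mean in any series (UPC2 in naive cells), and the highest was HES1 in naive cells at 0.70 above it. These are counts on single arrays with no test.

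**Figure D4:**
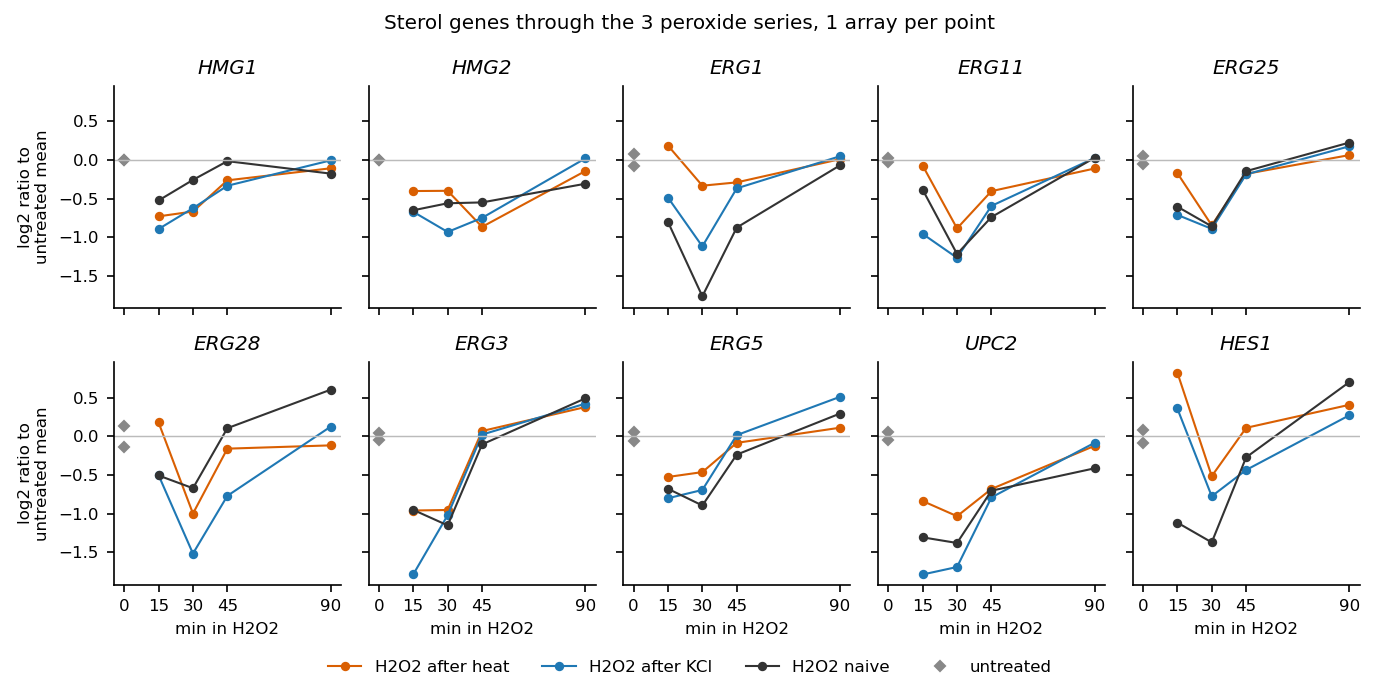
Log2 ratio to the untreated mean (vertical axis) against minutes in 0.66 mM peroxide for each gene, in heat-primed, KCl-primed and naive cells, with the untreated pair at 0 min and 1 array per point. The naive line is the lowest of the 3 for ERG1 at 15, 30, 45 and 90 min and for HES1 at 15 and 30 min, and the KCl-primed line is the lowest for UPC2 at 15 and 30 min.

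The second question was whether a first stress altered the response to peroxide. With group and time in the model, none of the 10 genes passed between heat-primed and naive cells (n = 4 arrays per group), where 3.34% of all genes were called in either direction. ERG1 came closest, at 0.77 ± 0.19 above naive cells (adjusted p = 0.0544), and it was higher in heat-primed cells at all 4 times, by 0.99, 1.43, 0.59 and 0.08 at 15, 30, 45 and 90 min. UPC2 was also higher at all 4 times, with a fitted difference of 0.28 ± 0.16 (adjusted p = 0.258). HES1 differed by 0.72 ± 0.32 (adjusted p = 0.158), and its differences of 1.94, 0.86, 0.38 and -0.29 shrank and changed sign over the 4 times. HMG1 differed by -0.20 ± 0.10 and ERG28 by -0.16 ± 0.21. The median of the 10 genes at a given time was 0.37, 0.26, 0.09 and -0.13 above naive cells, from the earliest to the latest.

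Several settings moved the ERG1 result across the threshold. It passed without the 90 min naive array (0.93, adjusted p = 0.0206), without the 90 min heat-primed array (0.96, adjusted p = 0.0213), without the 15 min KCl-primed array (0.77, adjusted p = 0.0417) and without the 90 min arrays altogether (1.002, adjusted p = 0.0225). Without the 90 min naive array HMG1 (-0.31, adjusted p = 0.0447) and HES1 (1.02, adjusted p = 0.0491) passed as well. Over all genes the count of calls ran from 0 to 829 when single arrays or times were left out, against 182 with all of them.

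Between KCl-primed and naive cells none of the 10 genes passed, and 0.147% of all genes did. ERG28 had the largest difference, -0.55 ± 0.21 (adjusted p = 0.224), and at 30 and 45 min it was 0.85 and 0.88 lower after KCl priming. ERG1 was again higher at all 4 times, by 0.32, 0.65, 0.51 and 0.12, with a fitted difference of 0.40 ± 0.19 (adjusted p = 0.307). ERG25 was lower at all 4 times, but by no more than 0.11. HES1 stood 1.48 above naive cells at 15 min and 0.43 below them at 90 min (fitted 0.37 ± 0.32).

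Heat-primed and KCl-primed cells were compared in the same model, and none of the 10 genes passed, where 0.128% of all genes did. The fitted differences were positive for all 10, from 0.0016 (ERG5) to 0.42 ± 0.16 (UPC2, adjusted p = 0.219). Their median was 0.28, against 0.02 over all genes. At 15 min all 10 genes were higher after heat priming, from 0.16 for HMG1 to 0.95 for UPC2, and at 90 min 9 of 10 were lower, by at most 0.40 (ERG5). Over all genes 51.8% were higher at 15 min and 44.9% lower at 90 min. Both primed series were set against the same naive arrays, so their differences from naive cells are not independent of each other.

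Peroxide after a first stress was also compared with rich medium after the same stress at 15 and 45 min, which asked what peroxide itself added. All 10 genes were lower in peroxide than in rich medium at both times after both primings, as were 19.7% of all genes (33.1% at both times after heat, 30.6% after KCl). After heat, HES1 was lower by 1.25 ± 0.12 (n = 2 arrays per group, adjusted p = 0.0401), reading 6.89 and 6.18 in heat-primed peroxide against 8.19 and 7.39 in rich medium. It was the only gene of all 5449 called lower there, 0.0184% of them. UPC2 differed by -0.86 ± 0.25 (adjusted p = 0.92), with 7.58 and 7.74 in peroxide against 8.49 and 8.55 in rich medium. The HES1 call was lost without any 1 of the 8 arrays in the fit (-1.29 to -1.22, highest adjusted p 0.513), and in a fit with no time term (-1.25, adjusted p rounding to 1).

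After KCl none of the 10 genes passed between peroxide and rich medium, where 0.165% of all genes did in either direction. ERG3 differed by -0.75 ± 0.26 and UPC2 by -0.68 ± 0.25, and HES1 by only -0.15 ± 0.12, reading 6.43 and 5.63 in KCl-primed peroxide against 6.57 and 5.79 in rich medium. The effect of peroxide on HES1 was 1.10 ± 0.17 more negative after heat than after KCl, with an unadjusted p of 0.00083 and an adjusted p that rounds to 1 over all genes, so the difference between the primings did not pass. In that test of the difference 0 of 5449 genes passed.

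Return to rich medium asked how far each first stress was undone. Against untreated cells, none of the 10 genes passed after heat or after KCl, and neither did any gene of the 5449 (0% called in both comparisons, with an unadjusted p under 0.05 in 288 genes after heat and 405 after KCl). The largest difference of the 10 was that of HES1 after heat, 1.72 ± 0.37 (adjusted p = 0.793), with both arrays above both untreated ones. UPC2 after KCl was -0.61 ± 0.16 (adjusted p = 0.572), with both arrays below both untreated ones. Between rich medium after heat and rich medium after KCl the call count was again 0% of all genes (416 with an unadjusted p under 0.05), and the largest differences of the 10 were those of HES1 (1.61 ± 0.37) and UPC2 (0.71 ± 0.16).

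Rich medium after heat was next compared with heat itself. ERG28 fell by 0.87 ± 0.21 on the log2 scale (adjusted p = 0.0241), to 11.08 and 10.58 in rich medium against 11.75 and 11.65 in heat, where 13.6% of all genes were called lower. HES1 was higher in rich medium by 1.57 ± 0.48, just outside the threshold (adjusted p = 0.0503). The ERG28 call was lost without the 30 min (-0.82) or 45 min (-0.92) heat array and without the 45 min rich medium array (-0.62). HES1 passed when either KCl array was left out (adjusted p = 0.0388), and likewise either array of rich medium after KCl (adjusted p = 0.0366), arrays that enter only the estimate of spread.

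Rich medium after KCl was compared with KCl in the same fit. ERG25 rose by 0.83 ± 0.23 (adjusted p = 0.0331), to 13.38 and 13.53 in rich medium against 12.88 and 12.38 in KCl, where 13.6% of all genes were called higher. HES1 fell by 1.73 ± 0.48 on the log2 scale (adjusted p = 0.0316), to 6.57 and 5.79 against 8.51 and 7.31, where 19.3% of all genes were called lower. ERG3 differed by 1.09 ± 0.49 and UPC2 by 0.52 ± 0.18 (adjusted p = 0.0679). ERG25 lost its call without the 45 min KCl array (0.57), either array of rich medium after heat (0.83) or either array of rich medium after KCl (0.90 and 0.75 without 15 and 45 min). HES1 lost its call without either heat array (-1.73), the 30 min KCl array (-1.13) or the 45 min sample of KCl-released cells (-1.34). That call was also lost after another quantile normalization and with the authors' fold-change table. When the 15 min sample of KCl-released cells was left out, ERG11 (0.79), ERG3 (1.71) and UPC2 (0.69) passed as well. The change of HES1 on release differed between the first stresses by 3.30 ± 0.67 (after heat minus after KCl, unadjusted p = 0.00175, adjusted p = 0.16), which did not pass, and 0.0551% of all genes did.

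The rest of the sterol system was described through 7 lists of genes. In heat, 0 of 7 mevalonate and farnesyl genes rose and 2 fell, MVD1 (mevalonate diphosphate decarboxylase, -0.83 ± 0.15) and ERG13 (HMG-CoA synthase, -0.61 ± 0.14), with a list median of -0.17. Of 11 genes of squalene synthesis and later steps, 0 rose and 1 fell, the cytochrome P450 reductase gene NCP1 (-0.65 ± 0.20). Of 15 genes of sterol transfer, 7 rose and 0 fell, among them LAM5 (1.50 ± 0.15), LAM4 (1.16 ± 0.22) and OSH2 (0.95 ± 0.13), with a list median of 0.55 against 0.07 over all genes. Among 7 sterol ester genes 4 rose and 1 fell, with the acyltransferase gene ARE2 at 2.01 ± 0.30 and ATF2, whose enzyme acetylates sterols, at -2.04 ± 0.40. Over all genes, 27.5% were called higher in heat and 22.4% lower.

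In KCl, where 30.2% of all genes were called higher and 26% lower, 3 of 7 mevalonate and farnesyl genes fell and 0 rose, led by ERG12 (mevalonate kinase, -0.88 ± 0.13). Of the 11 genes of squalene synthesis and later steps 3 fell, CYB5 (cytochrome b5, -1.95 ± 0.47), NCP1 (-0.84 ± 0.20) and ERG2 (-0.76 ± 0.20), and 1 rose, the squalene synthase gene ERG9 (0.77 ± 0.16). Of the 14 regulators 6 rose and 3 fell. NSG2, which stabilises HMG-CoA reductase, rose by 1.70 ± 0.19 and HRD1, the ubiquitin ligase that takes part in breaking it down, by 1.20 ± 0.19, while ECM22, the relative of UPC2, differed by -0.66 ± 0.27 without passing. Of 10 genes of sterol uptake and the anaerobic cell wall 4 fell and 1 rose, with the sterol importer gene AUS1 at -1.21 ± 0.14 and its partner PDR11 at 0.49 ± 0.20, which did not pass. Of 15 transfer genes 7 rose and 1 fell, with LAM5 and LAM4 both at 1.60 (± 0.15 and ± 0.22), and of 7 ester genes 1 rose and 4 fell, including ATF2 (-2.28 ± 0.40) and the steryl ester hydrolase gene YEH1 (-1.67 ± 0.33).

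In naive peroxide 11.2% of all genes were called higher and 7.18% lower, and fewer of the listed genes passed than in heat or KCl: 0 of 7 mevalonate and farnesyl genes, 0 of 11 genes of squalene synthesis and later steps, and 4 of 15 transfer genes (3 higher, 1 lower). The passing transfer genes were LAM5 (1.19 ± 0.15), YSP2 (-0.70 ± 0.15), OSH2 (0.64 ± 0.13) and LAM6 (0.55 ± 0.15). Regulators gave 1 rise, NSG2 (1.03 ± 0.19), and 3 falls led by MGA2 (-1.23 ± 0.14), an activator of the fatty acid desaturase gene. The late genes ERG9 (0.42 ± 0.16), ERG7 (-0.59 ± 0.25) and ERG24 (-0.10 ± 0.20) did not pass, beside the called falls of ERG1 and ERG11. Of the 8 genes that use farnesyl diphosphate for other products, 2 rose and 2 fell in heat, 4 rose and 3 fell in KCl, and 0 rose and 1 fell in peroxide, against the shares of all genes given above for each stress. Between heat-primed and naive cells, LAM5 (-0.66 ± 0.13, adjusted p = 0.0442) and COQ2 (0.32 ± 0.07, adjusted p = 0.0483) were the listed genes that passed.

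**Figure D5:**
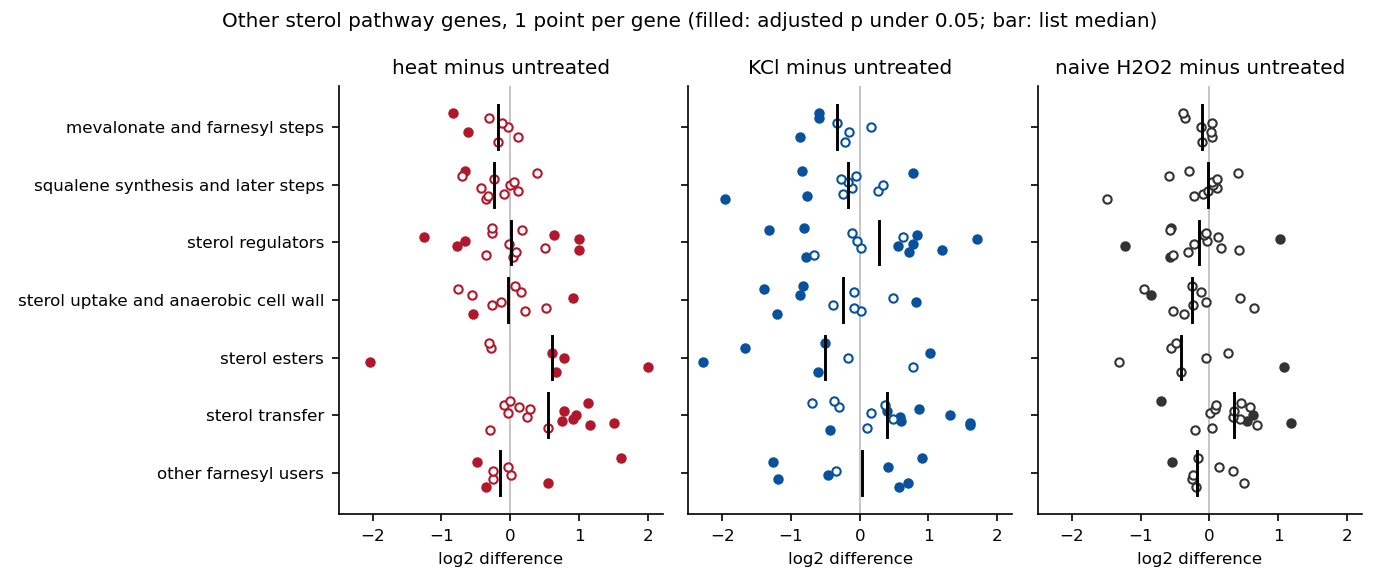
Log2 difference of heat, KCl and naive peroxide (30 and 45 min) from untreated cells for the genes of 7 lists of the sterol system (rows), 1 point per gene, filled where the adjusted p was under 0.05, with a bar at each list's median. Transfer genes have medians of 0.55, 0.40 and 0.35 in heat, KCl and peroxide, and mevalonate and farnesyl genes -0.17, -0.32 and -0.11.

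After release into rich medium some of the transfer genes fell relative to the stress. In rich medium after heat 4 of 15 were lower than in heat, where 13.6% of all genes were, with LAM5 at -1.79 ± 0.20 and OSH2 at -1.38 ± 0.17. In rich medium after KCl 4 of 15 were lower than in KCl, where 19.3% of all genes were, with LAM5 at -1.74 ± 0.20 and OSH2 at -1.61 ± 0.17. HES1 fell with them on release from KCl, but on release from heat it was higher by 1.57 ± 0.48 (limma, adjusted p = 0.0503). CYB5 rose by 1.67 ± 0.40 on release from KCl, beside the rise of ERG25. It was the 1 gene called higher there among the 11 of squalene synthesis and later steps, where 13.6% of all genes were.

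Likeness between the 10 genes was described over the 20 treated arrays, which share times, treatments and the untreated pair. UPC2 had the highest median correlation with the other 9 (r = 0.75), followed by ERG25 and the tied ERG11 and ERG3 (0.72 each), and HES1 had the lowest (0.35). The 3 genes most like ERG25 out of all others were CYB5 (r = 0.90, Spearman 0.86), ERG11 (0.89, 0.90) and UPC2 (0.88, 0.88). UPC2 had ERG25 as 1 of its 3 nearest genes, with SLY41 (0.89) and DIF1 (0.88). For the other 8 genes all 3 nearest genes lay outside the 10, for example AAC3 (0.94) for ERG11, ASG1 (0.90) for ERG1, FAA3 (0.90) for ERG3, CAR2 (0.86) for ERG28 and PRP2 (0.86) for HES1.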

How the data were processed

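Total RNA of 22 yeast samples was measured on Affymetrix arrays. The deposited values are log2 expression per probe set, which the authors obtained with RMA, per the submitters' processing notes (version and settings not given in the sources used here). Another deposited table holds log2 fold changes against time 0, per the file header, and was used only as an alternative. Probe sets were joined to genes through the array annotation, keeping the brightest of a gene's probe sets, which left 5449 genes from 10928 probe sets; the 10 genes described have 1 probe set each. Background is the 95th percentile of 1746 probe sets whose named gene is not in the S. cerevisiae table. The number of arrays limits the precision.

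The limma package 3.58.1 (lmFit and eBayes, under R 4.3.3) gave all differences, fitted across all genes and adjusted by Benjamini-Hochberg, with a threshold of 0.05; errors are limma standard errors. Stresses and untreated cells used 8 arrays (30 and 45 min), the peroxide series 12 with time as a term, peroxide against rich medium 8 with time as a term, rich medium against untreated cells 6, and rich medium against stress 8. The fits were tested on simulated data. The 10 genes were named in every comparison, and of each pathway list up to 4 called genes with the largest differences, plus AUS1, PDR11, ECM22, ARE2, ERG9, ERG7, ERG24 and NCP1; each gene's 3 nearest genes were taken by Pearson correlation. The genes and lists were chosen with earlier results of these data known, so they give no independent support. Sequences of the genes and their promoters were not used here. Alternatives were another quantile normalization, median shifts, a filter on dim genes, another variance model, the mean of probe sets, the authors' table, other sets of arrays or time terms, and each array or time left out.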

Additional observations from a re-analysis of the deposited data

How the results depend on the processing

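No difference of the 10 genes that passed the threshold changed sign under any alternative run. Of 27 such differences, UPC2 in KCl against untreated cells passed under all 14 alternatives that gave it a value and HES1 in naive peroxide against KCl under all 16. Each of the other 25 was lost under at least 1 of them. Among 133 differences that did not pass, 46 changed sign under at least 1 alternative, and the largest of those 46 was 0.47 in size. With all 22 arrays in 1 fit, the genes of the 10 that passed were 0 in heat, 2 in KCl and 0 in naive peroxide against untreated cells (1, 6 and 3 as reported), 1 in heat against KCl (6), 2 in peroxide against heat (5), 1 in peroxide against KCl (2), 0 in heat-primed peroxide against rich medium (1) and 1 in rich medium against KCl (2). With all 4 peroxide times the counts were 0 against untreated cells, 2 against heat and 1 against KCl, and with a time block among the stresses they were 0 in heat against KCl, 2 in peroxide against heat and 1 in peroxide against KCl. With the dimmest 25% of genes left out, HES1 and UPC2 among them, the count was 1 in peroxide against KCl, 0 in heat-primed peroxide against rich medium and 1 in rich medium against KCl. The filter also took the HES1 and UPC2 calls out of KCl against untreated cells and heat against KCl. It took the UPC2 call out of peroxide against untreated cells and against heat. Heat-primed against naive cells gave 1 passing gene of the 10, ERG1, after another quantile normalization, that filter, the trend and robust variance model or the authors' fold-change table (0 as reported). The comparison of heat-primed peroxide with rich medium gave 0 after the quantile normalization, the variance model, the authors' table or without a time term. Rich medium against heat gave 2 after the quantile normalization or with the authors' table (1 as reported), HES1 being the added gene. With all 22 arrays in 1 fit ERG28 lost its call there, although the count was not below 1. Calls over all genes also varied over these alternatives, within the ranges given below. The cause of these changes was not tested, except that the filter removes genes.

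With single arrays or times left out, the passing genes of the 10 numbered 0 to 1 in heat, 1 to 6 in KCl and 0 to 4 in peroxide against untreated cells, 0 to 7 in heat against KCl, 1 to 6 in peroxide against heat, 1 to 3 in peroxide against KCl, 0 to 3 in heat-primed against naive cells, 0 in heat-primed peroxide against rich medium, 0 to 2 in rich medium against heat and 0 to 4 in rich medium against KCl. Calls over all genes moved as well. Leaving out arrays or times gave 1469 to 3103 in heat (2721 as reported), 1976 to 3057 in KCl (3062) and 125 to 1499 in peroxide against untreated cells (1001), 848 to 1874 in heat against KCl (1668), 460 to 1903 in peroxide against heat (1388) and 1402 to 2340 in peroxide against KCl (2306). It gave 0 to 829 in heat-primed against naive cells (182), 0 to 129 in KCl-primed against naive cells (8), 0 to 56 between the primed series (7), 0 to 10 and 0 to 5 in peroxide against rich medium after heat and after KCl (9 each), 209 to 1687 in rich medium against heat (1404) and 1086 to 1824 against KCl (1793). When the 45 min sample of KCl-released cells was left out, 195 genes passed against untreated cells and 109 between the rich medium groups (0 as reported for both). The other alternatives gave 2092 to 2743 in heat, 2281 to 3082 in KCl and 0 to 1022 in peroxide against untreated cells. Between stresses they gave 662 to 1687 in heat against KCl, 417 to 1968 in peroxide against heat and 1416 to 2557 in peroxide against KCl. They gave 6 to 434 in heat-primed and 2 to 12 in KCl-primed against naive cells, and 4 to 9 between the primed series. Peroxide against rich medium gave 0 to 9 after heat and 0 to 10 after KCl. Rich medium gave 1159 to 2234 against heat and 1222 to 2367 against KCl. Fits with time as a term or block used the times that groups share and are given above and in the results. No paired analysis was possible because the labels give no replicate number that groups share, so no replicate block could be fitted. At 45 min alone, with no test, ERG28 differed by -1.07 between rich medium and heat, and ERG25 by 1.16 and HES1 by -1.52 between rich medium and KCl.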
